A study of Homo sapiens with 6 samples.

Results

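The genes described here are 9 members of the MHC class I antigen presentation pathway, taken by gene name from the 57914 rows of the deposited expression tables. They are the heavy chain genes HLA-B, HLA-C and HLA-E, the light chain gene B2M, the peptide loading genes TAP1, TAP2 and TAPBP, the immunoproteasome gene PSMB8, and NLRC5, a regulator of this pathway. All 9 passed the filter on low counts, with between 291 and 16121 counts per library. RNA was sequenced from A375, an established human melanoma cell line, after staining with Aldefluor, a substrate that turns fluorescent in cells with aldehyde dehydrogenase (ALDH) activity. Cells from the brightest 5% (ALDH_High, 3 libraries) and from the dimmest 5% (ALDH_Low, 3 libraries) were compared. The labels give no other treatment for either group. Both groups are the extremes of 1 line grown in 1 medium, and the labels do not say that the libraries came from separate cultures, so the p-values below measure the spread between these libraries, which may be technical.

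Total counts ran from 26692868 to 37830603 per library. ALDH1A3, the gene named in the study's title, checks the sort: it had 279, 519 and 504 TPM (a level scaled to gene length and library size) in ALDH_High libraries 1, 2 and 3, against 150, 182 and 165 TPM in ALDH_Low. ALDH_High library 1 stood apart from the other ALDH_High libraries by this measure, and calls that change without it are given below. Of 8 melanoma markers, 5 were high enough to be tested; SOX10, a melanocyte lineage factor, had means of 397 and 111 TPM in ALDH_High and ALDH_Low. S100B and S100A1 were also higher in ALDH_High, whereas MITF, a regulator of pigment cell genes, was lower (means of 6.16 and 11.3 TPM, log2 fold change -0.92, edgeR adjusted p 0.00667), and PMEL did not pass. The pigment cell genes TYR and MLANA had at most 3 counts in any library. Of 15 leukocyte markers, 8 had at most 3 counts in every library, and PTPRC, which encodes the pan-leukocyte antigen CD45, had at most 4. The summed level of the leukocyte list was 15.7 to 29.2 TPM in ALDH_High and 51.8 to 65.7 TPM in ALDH_Low. CD68, a lysosomal protein of macrophages, made up most of that sum, with 10.9 to 19.2 TPM in ALDH_High and 47.2 to 61.2 TPM in ALDH_Low. Without CD68 the list summed to 4.35 to 10.0 TPM in ALDH_High and 4.45 to 5.19 TPM in ALDH_Low, so the groups overlapped. Among the others tested, CD14 was lower in ALDH_High and LYZ higher (means of 4.70 and 1.47 TPM). The part of these genes in the results was not tested. RNA of sorted cells was measured in bulk, so fewer cells with a transcript and less of it per cell cannot be told apart.

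MHC class I molecules display peptides from inside the cell to CD8 T cells. The proteasome cuts proteins, the TAP1 and TAP2 transporter moves the peptides into the endoplasmic reticulum, and tapasin (TAPBP) helps to load them. The heavy chain mostly reaches the surface paired with beta-2-microglobulin. Interferon-gamma induces these genes, in part through IRF1, and NLRC5 acts on the X and Y boxes of class I promoters, which are bound by the RFX complex, CREB or ATF factors and NF-Y. Tumour cells, melanoma among them, often lower this pathway and so become less visible to T cells.

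Promoter sequences were matched for 7 of the 9 members in RefSeq (GRCh38.p14); HLA-E and NLRC5 were not matched. The 250 bases before the start site are shown for 5 members. HLA-B, HLA-C and B2M carry the same regulatory pair, while HLA-B and HLA-C were called higher and B2M was not. A link between the pair and these calls was not tested. TAP1 and TAP2 are shown for an interferon element, which TAPBP, not shown, also holds. In the HLA-B and HLA-C sequences, capitals mark the core of the X2 box (TGACG) and the Y box (ATTGG). In B2M they mark the same pair and the interferon-stimulated response element (ISRE, GAAANNGAAA), and in TAP1 and TAP2 the ISRE alone, read on either strand and including overlapping matches. HLA-B lies at chr6:31357180-31357429 and HLA-C at chr6:31272093-31272342, both on the minus strand. B2M lies at chr15:44711267-44711516 on the plus strand, TAP1 at chr6:32853705-32853954 and TAP2 at chr6:32838740-32838989, both on the minus strand. TAP1 has a further RefSeq start site, which is not shown.
HLA-B: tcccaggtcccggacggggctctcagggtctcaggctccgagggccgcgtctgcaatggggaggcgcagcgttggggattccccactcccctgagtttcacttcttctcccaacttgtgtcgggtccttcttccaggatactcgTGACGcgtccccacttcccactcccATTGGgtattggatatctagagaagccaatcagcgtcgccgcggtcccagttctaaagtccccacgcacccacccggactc
HLA-C: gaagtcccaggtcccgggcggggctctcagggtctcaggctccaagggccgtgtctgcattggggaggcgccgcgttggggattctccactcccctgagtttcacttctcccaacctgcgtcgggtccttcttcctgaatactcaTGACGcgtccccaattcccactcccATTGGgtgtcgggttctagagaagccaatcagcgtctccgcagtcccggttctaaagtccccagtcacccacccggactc
B2M: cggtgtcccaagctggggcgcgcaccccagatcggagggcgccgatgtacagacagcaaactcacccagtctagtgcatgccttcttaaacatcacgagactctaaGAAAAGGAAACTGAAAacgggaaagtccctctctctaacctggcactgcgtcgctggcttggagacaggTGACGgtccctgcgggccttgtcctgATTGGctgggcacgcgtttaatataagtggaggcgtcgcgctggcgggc
TAP1: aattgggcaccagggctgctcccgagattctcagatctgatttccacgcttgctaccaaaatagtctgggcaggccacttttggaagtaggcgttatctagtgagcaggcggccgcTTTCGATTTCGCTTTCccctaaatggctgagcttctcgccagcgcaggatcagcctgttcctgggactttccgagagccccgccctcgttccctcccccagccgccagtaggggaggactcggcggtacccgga
TAP2: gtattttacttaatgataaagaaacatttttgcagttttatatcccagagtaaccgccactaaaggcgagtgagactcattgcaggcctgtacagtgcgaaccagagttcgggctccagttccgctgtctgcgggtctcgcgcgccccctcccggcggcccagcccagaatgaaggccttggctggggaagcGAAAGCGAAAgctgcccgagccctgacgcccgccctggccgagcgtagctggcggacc

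The motifs and the spacing were chosen after these promoters had been read. The X2 core followed by a Y box on the same strand, with 10 to 30 bases between, was found in 0.363% of 34943 promoters of this length. It was present in HLA-B (positions -106 to -77), HLA-C (-105 to -76) and B2M (-75 to -45). The ISRE was found in 3.02% of the promoters, and in B2M (-144 to -129), TAP1 (-134 to -119), TAP2 (-58 to -49) and TAPBP (-20 to -5). The exact letters of the ISRE were not found in the 250 bases of HLA-B, of HLA-C or of either PSMB8 start site. Variants of these letters were not searched, so this does not show that those promoters lack an interferon element. The NF-kB consensus was searched on the written strand only. A match on that strand, present in 7.45% of the promoters, was found in HLA-B, HLA-C, TAP1 and TAPBP. The other strand was not searched, so a promoter without a match here can still hold one. The B2M sequence shown holds such letters on the other strand (ggaaagtccc). The HLA-B and HLA-C sequences were identical at 226 of 254 aligned positions (89%). These are the reference sequences, not those of A375, and a match describes letters and not a bound site. Both strands were searched for the ISRE, the GAS element (TTCNNNGAA), the X2 core and the Y box; Y boxes alone occurred in 32% of promoters, X2 cores in 21.2% and GAS elements in 6.56%.

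**Figure D1:**
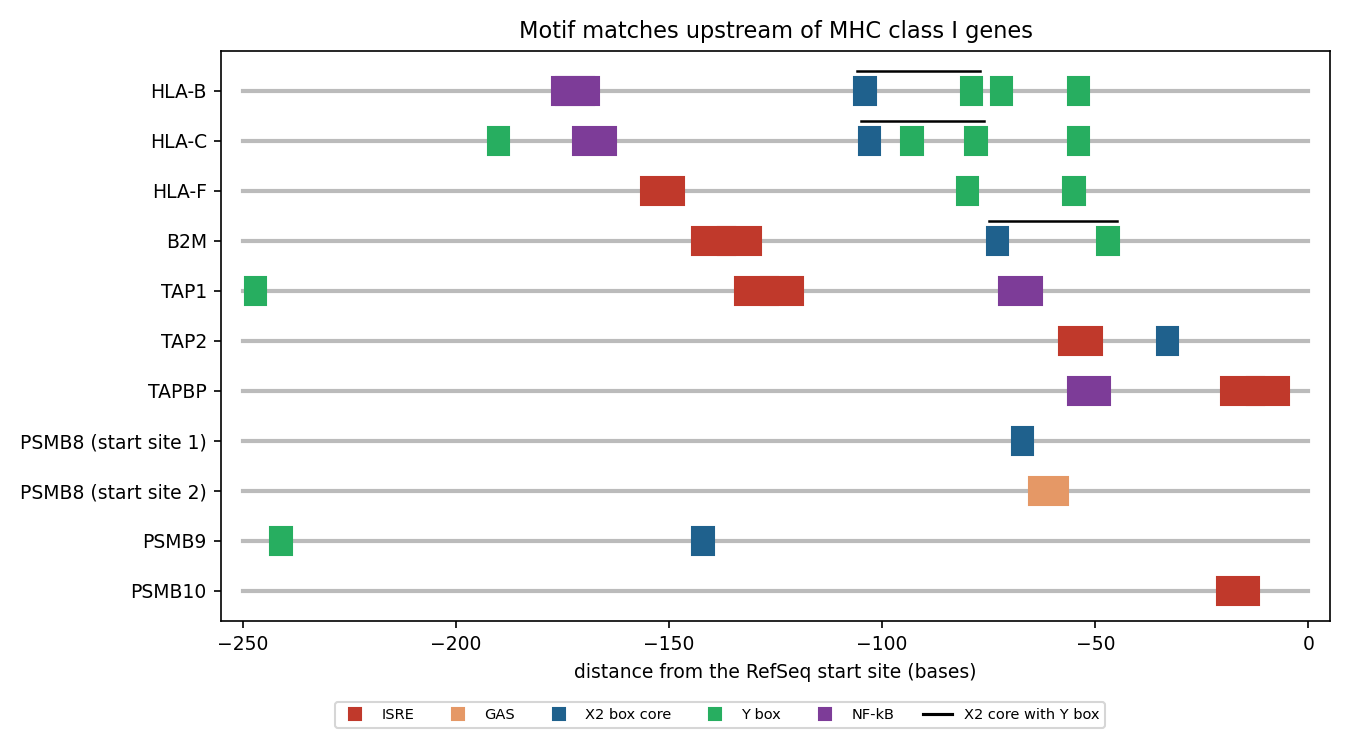
Motif matches in the 250 bases before the RefSeq start site of class I pathway genes. The x axis is the distance from the start site in bases, and a black line joins an X2 core to the Y box after it. Coloured boxes are matches on either strand, except that NF-kB was searched on the written strand only. The pair is drawn in HLA-B, HLA-C and B2M, and ISRE matches in B2M, TAP1, TAP2, TAPBP, HLA-F and PSMB10.

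The members did not move together. HLA-B, HLA-C and HLA-E were higher in ALDH_High than in ALDH_Low, by 3.33-fold, 1.96-fold and 1.74-fold. NLRC5 and PSMB8 were lower in ALDH_High, by 1.81-fold and 1.87-fold. B2M, TAP1, TAP2 and TAPBP did not pass the test, with log2 fold changes between -0.41 and -0.10. Of the members, 5 of 9 members passed an adjusted p of 0.05 (edgeR quasi-likelihood test, Benjamini-Hochberg over 17047 genes), where 20.6% of all genes tested did so. The 3 higher members stand against 10.8% of genes called higher, and the 2 lower members against 9.83% called lower. Counts scaled to library size did not overlap between the groups for 7 of the 9, against 37.8% of all genes: 3 were higher (18.6% of all genes) and 4 lower (19.1%). The median log2 fold change of the 9 was -0.20, beside -0.013 over all genes tested, and describes neither direction.

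HLA-B encodes a classical heavy chain, which presents peptides to CD8 T cells (ENSG00000234745, chromosome 6, 31353872 to 31367067, minus strand, GRCh38). It had 138, 142 and 147 TPM in ALDH_High libraries 1, 2 and 3. In ALDH_Low libraries 1, 2 and 3 it had 39.2, 36.7 and 47.6 TPM. All ALDH_High libraries lay far above all ALDH_Low libraries, and the spread within each group was small beside the gap. The means were 142 ± 4.53 and 41.2 ± 5.67 TPM (SD, n = 3), and the fold change on the log2 scale was 1.74 (SE 0.14, edgeR adjusted p 2.55e-05).

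HLA-C, the other classical heavy chain described here and also a ligand of killer cell receptors, lies next to it (ENSG00000204525, chromosome 6, 31268749 to 31272130). It had 121, 103 and 98.3 TPM in ALDH_High and 51.2, 52.5 and 55.8 TPM in ALDH_Low. The ALDH_High libraries were higher without overlap, with library 1 the highest of them. HLA-C had a log2 fold change of 0.97 (SE 0.14, edgeR adjusted p 0.000968).

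HLA-E, a non-classical heavy chain that shows leader peptides of other class I chains to NK cells (ENSG00000204592, chromosome 6, 30489509 to 30494194), had 86.8, 93.4 and 106 TPM in ALDH_High. It had 47.1, 50.8 and 60.1 TPM in ALDH_Low, so that the groups did not overlap here either. For HLA-E the log2 fold change was 0.80 (SE 0.13, edgeR adjusted p 0.0019). Without ALDH_High library 1 the log2 fold changes of HLA-B, HLA-C and HLA-E were 1.72, 0.83 and 0.83, each still past the threshold.

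Class I genes resemble each other, and how the authors assigned reads that fit several of them is not given in the sources used here. Of all 50-base windows in the annotated transcripts of HLA-B, 1.75% also occur in another of 38 HLA genes and pseudogenes. The share was 5.46% for HLA-C and 4.01% for HLA-E. Windows were pooled over 13, 9 and 3 annotated transcripts and matched exactly, so these are not shares of reads. The alleles of A375 can differ from the reference, which bears on levels set between genes more than on 1 gene compared between groups of the same line.

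B2M, the light chain shared by these heavy chains (ENSG00000166710, chromosome 15, 44711358 to 44718851), was the most abundant member. It had 995, 1077 and 1151 TPM in ALDH_High and 1259, 1176 and 1292 TPM in ALDH_Low. The ALDH_High libraries were all below the ALDH_Low libraries, by a narrow margin between the nearest values. B2M had a log2 fold change of -0.26 (SE 0.10, 95% interval -0.49 to -0.03, edgeR adjusted p 0.105). It did not pass over all genes, and the interval leaves no room for a rise of the size seen in HLA-B, HLA-C or HLA-E.

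**Figure D2:**
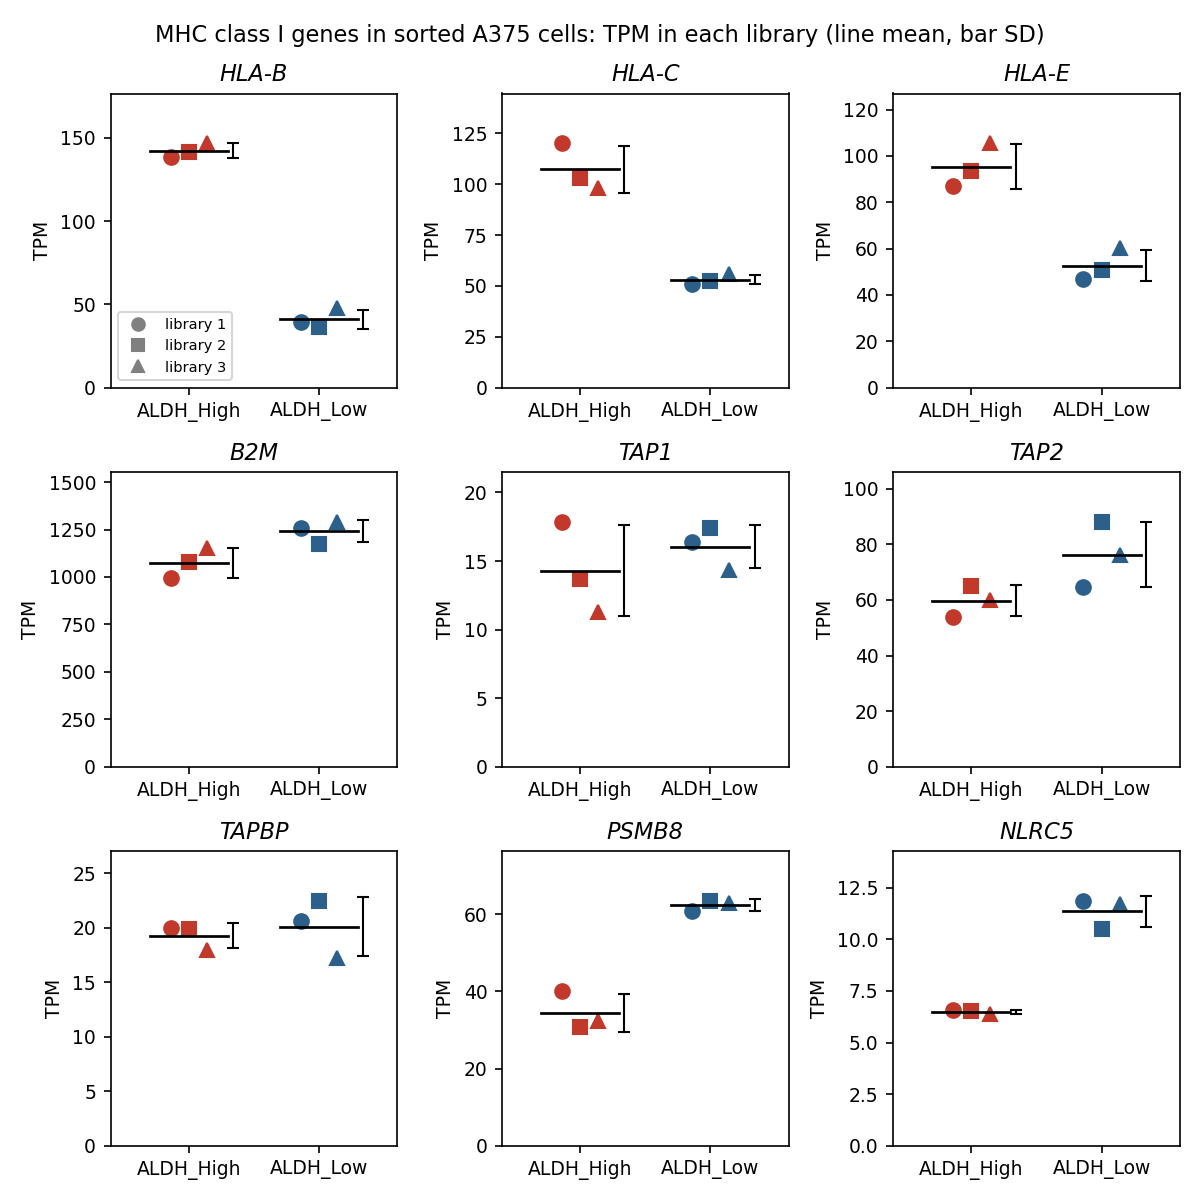
TPM of the 9 members in each of the 6 libraries, with the y axis from 0, a line at the mean of each group and a bar of 1 SD (n = 3). HLA-B, HLA-C and HLA-E lie higher in ALDH_High, NLRC5 and PSMB8 lower, and the libraries of TAP1, TAP2 and TAPBP overlap.

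NLRC5, which acts on class I promoters as CIITA does on class II promoters (ENSG00000140853, chromosome 16, 56989485 to 57083531), moved opposite to HLA-B, HLA-C and HLA-E. It had 6.56, 6.54 and 6.39 TPM in ALDH_High and 11.9, 10.5 and 11.7 TPM in ALDH_Low. The 3 ALDH_High libraries were almost equal and all ALDH_Low libraries were higher. In the fit, NLRC5 changed by -0.86 on the log2 scale (SE 0.14, edgeR adjusted p 0.00222). NLRC5 had the lowest level of the 9 in both groups.

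PSMB8 encodes the inducible subunit beta5i, which takes the place of PSMB5 in the immunoproteasome (ENSG00000204264, chromosome 6, 32840717 to 32844679). It had 40.1, 30.9 and 32.2 TPM in ALDH_High and 60.7, 63.6 and 63.0 TPM in ALDH_Low. ALDH_High library 1 was the nearest to the ALDH_Low group, and no values overlapped. The log2 fold change was -0.90 (SE 0.15, edgeR adjusted p 0.00238), and -1.07 without ALDH_High library 1. The gene overlaps PSMB8-AS1 and PSMB9 on the opposite strand; the libraries are stranded, but whether the counting used strand is not given in the sources used here.

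The peptide loading genes gave no call. TAP1 (ENSG00000168394, chromosome 6, 32845209 to 32853816) had 17.9, 13.7 and 11.3 TPM in ALDH_High and 16.4, 17.4 and 14.3 TPM in ALDH_Low, so the groups overlapped. Its log2 fold change was -0.20 (SE 0.19, 95% interval -0.63 to 0.23, edgeR adjusted p 0.529). ALDH_High library 1 held the highest TAP1 value of all libraries. Without it the log2 fold change of TAP1 was -0.44 and passed (edgeR adjusted p 0.0405, with a range of 0.0405 to 0.975 over 15 alternatives), whereas without ALDH_High library 3 it was -0.01.

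TAP2, the other transporter subunit (ENSG00000204267, chromosome 6, 32821833 to 32838739), had 53.9, 65.1 and 59.9 TPM in ALDH_High and 64.5, 88.2 and 76.3 TPM in ALDH_Low. The groups touched in TPM, where ALDH_High library 2 lay just above ALDH_Low library 1, and did not overlap in counts scaled to library size. For TAP2 the log2 fold change was -0.41 (SE 0.13, edgeR adjusted p 0.0525), close to the threshold, and 6 of 15 alternatives passed it. One of these was the fit without ALDH_Low library 1 (-0.51, edgeR adjusted p 0.0254, with 0.0254 to 0.239 over the 15). A protein-coding gene named AL669918.1 in the tables overlaps TAP2 on the same strand and was called lower (log2 fold change -1.005, edgeR adjusted p 0.00573); its part in the TAP2 values was not tested.

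TAPBP, the chaperone that bridges TAP and the heavy chain (ENSG00000231925, chromosome 6, 33299694 to 33314284), had 20.0, 19.9 and 18.0 TPM in ALDH_High and 20.6, 22.5 and 17.2 TPM in ALDH_Low. The groups overlapped. TAPBP had a log2 fold change of -0.10 (95% interval -0.39 to 0.19, edgeR adjusted p 0.65), the smallest among the 9.

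The ratio of the light chain to the heavy chains was lower in the ALDH_High libraries, which follows from the single-gene values above. Within each library, the ratio of B2M to the sum of HLA-B, HLA-C and HLA-E was 2.88, 3.18 and 3.28 in ALDH_High and 9.16, 8.40 and 7.91 in ALDH_Low. The sum itself was 345 ± 6.53 TPM in ALDH_High and 147 ± 14.3 TPM in ALDH_Low (SD, n = 3). HLA-B made up 40.0 to 41.9% of the sum in ALDH_High and 26.2 to 29.1% in ALDH_Low. The groups did not overlap in any of these values.

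The ratio of HLA-B to HLA-C was 1.15, 1.37 and 1.497 in ALDH_High and 0.766, 0.700 and 0.852 in ALDH_Low, so HLA-B was the higher of the pair in every ALDH_High library and the lower in every ALDH_Low library. The ratio of HLA-E to HLA-B plus HLA-C was 0.383 ± 0.0477 in ALDH_High and 0.557 ± 0.0323 in ALDH_Low (SD, n = 3). For PSMB8 to PSMB5, the constitutive subunit that PSMB8 replaces, the ratio was 0.137 ± 0.0122 in ALDH_High and 0.237 ± 0.00549 in ALDH_Low (SD, n = 3). Only TAP2 to TAP1 overlapped between the groups, at 3.02 to 5.30 in ALDH_High and 3.93 to 5.33 in ALDH_Low. Among these 5 ratios, the 4 without overlap each had an exact two-sided permutation p of 0.1, the smallest that 3 against 3 libraries can give, or 0.125 after Benjamini-Hochberg adjustment over the 5. The exact permutation p for TAP2 to TAP1 was 0.6.

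**Figure D3:**
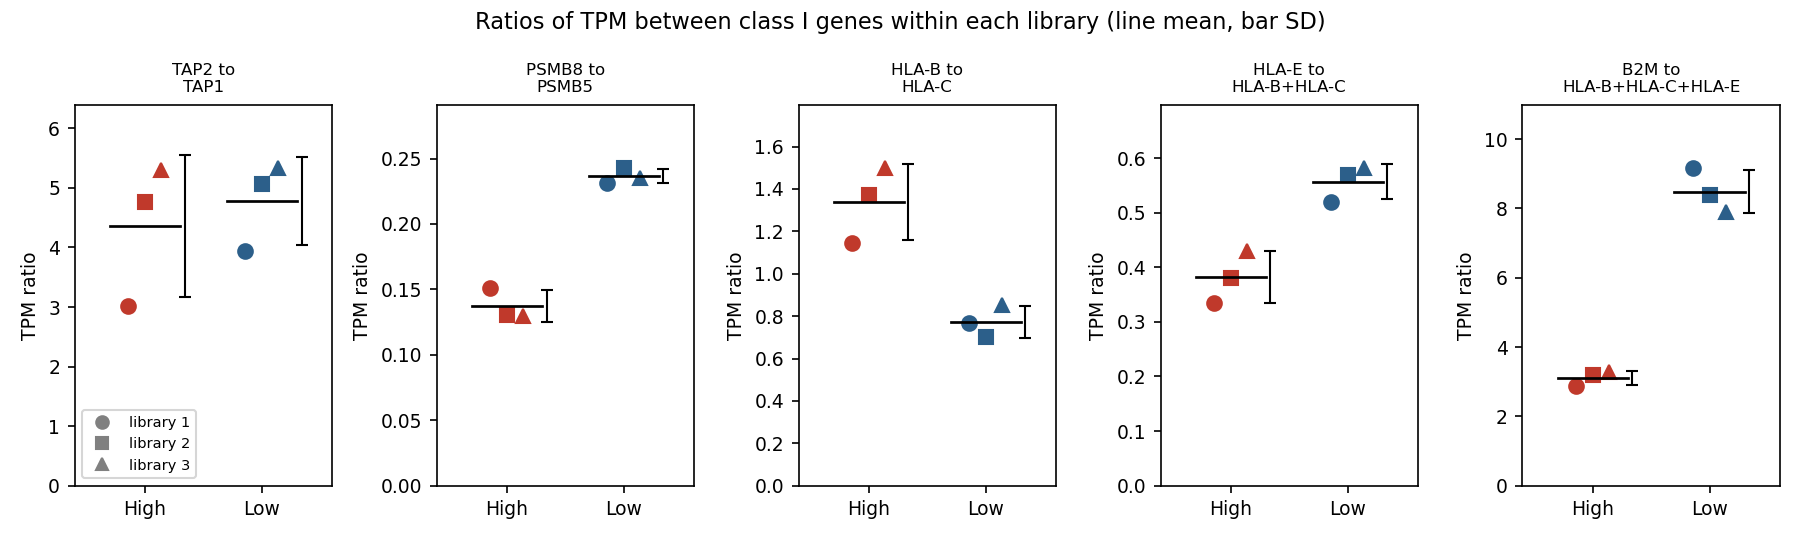
Ratios of TPM between class I pathway genes within each of the 6 libraries, with y axes from 0, a line at the group mean and a bar of 1 SD (n = 3). The ratio of B2M to the 3 heavy chains is 3.11 ± 0.208 in ALDH_High and 8.49 ± 0.63 in ALDH_Low, and the ratio of TAP2 to TAP1 overlaps between the groups.

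The order of the members by TPM changed with the group. In ALDH_High it was B2M, HLA-B, HLA-C, HLA-E, TAP2, PSMB8, TAPBP, TAP1 and NLRC5, and neighbours overlapped between libraries only for HLA-C and HLA-E. In ALDH_Low it was B2M, TAP2, PSMB8, HLA-C, HLA-E, HLA-B, TAPBP, TAP1 and NLRC5. There the libraries of HLA-C and HLA-E, of HLA-E and HLA-B, and of TAPBP and TAP1 overlapped. HLA-B thus stood at the second place in ALDH_High and at the sixth in ALDH_Low. TPM rests on gene lengths that are not stated, which sets the order between genes but not the comparison of a gene between groups.

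The other genes of the pathway, 43 in 8 lists, were examined in the same fit. Of the 42 tested, 4 were higher and 6 lower, together 23.8% against 20.6% of all genes tested. HLA-F, a further non-classical heavy chain, was higher in ALDH_High: it had 5.11, 4.96 and 5.31 TPM there and 2.23, 1.68 and 1.72 TPM in ALDH_Low. The count fit gave HLA-F a value of 1.40 on the log2 scale (SE 0.25, edgeR adjusted p 0.00294). MR1, which presents vitamin metabolites, did not pass (-0.29, edgeR adjusted p 0.628), and HLA-G had at most 2 counts in any library.

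The inducible proteasome genes went the way of PSMB8. All 4 in the list of further immunoproteasome and PA28 genes were called lower in ALDH_High, where 9.83% of all genes tested were called lower. PSMB9, the beta1i subunit, had 19.7, 15.3 and 10.97 TPM in ALDH_High and 35.9, 29.7 and 34.7 TPM in ALDH_Low. Its log2 fold change was -1.16 (edgeR adjusted p 0.00671). PSMB10, the beta2i subunit, had 44.7 ± 6.02 and 73.5 ± 5.13 TPM (SD, n = 3; -0.76, edgeR adjusted p 0.00745). PSME1 and PSME2, the PA28 activator subunits, changed less, with log2 fold changes of -0.49 and -0.41 (edgeR adjusted p 0.0177 and 0.0369). PSME1 lost the call in 4 of 15 alternatives and PSME2 in 6, among them the fits without ALDH_High library 2, 3 or ALDH_Low library 2, 3 for both genes. The constitutive catalytic subunits PSMB5, PSMB6 and PSMB7 gave 0 calls of 3, with log2 fold changes of -0.12, -0.34 and -0.12 in the order named (edgeR adjusted p 0.137 to 0.531). At an unadjusted p under 0.05, 1 of the 3 passed in edgeR, and DESeq2 and limma also gave 0 calls.

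TAP1 and PSMB9 face away from each other on opposite strands, with 488 bases between their RefSeq start sites. In the GENCODE annotation, PSMB9 (32844136 to 32859851) also spans all of TAP1 on the opposite strand. PSMB10 overlaps a protein-coding gene on the same strand, with at most 215 counts in any library. PSME1 and PSME2 overlap EMC9 and RNF31 on the opposite strand, with at most 636 and 1640 counts. The part of these overlaps in the values was not tested. PSMB9 passed as lower and TAP1 did not; the difference between the pair was not tested. Of 6 trimming and loading genes, ERAP2 alone was called, lower in ALDH_High at 1.12 ± 0.275 against 2.72 ± 0.301 TPM (SD, n = 3). The fitted log2 fold change of ERAP2 was -1.33 (edgeR adjusted p 0.003). ERAP2 trims peptides in the endoplasmic reticulum. ERAP1, its close relative, had a log2 fold change of -0.14 (edgeR adjusted p 0.528). The loading chaperones CALR, CANX and PDIA3 had values of 0.14, 0.15 and 0.25 and did not pass.

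**Figure D4:**
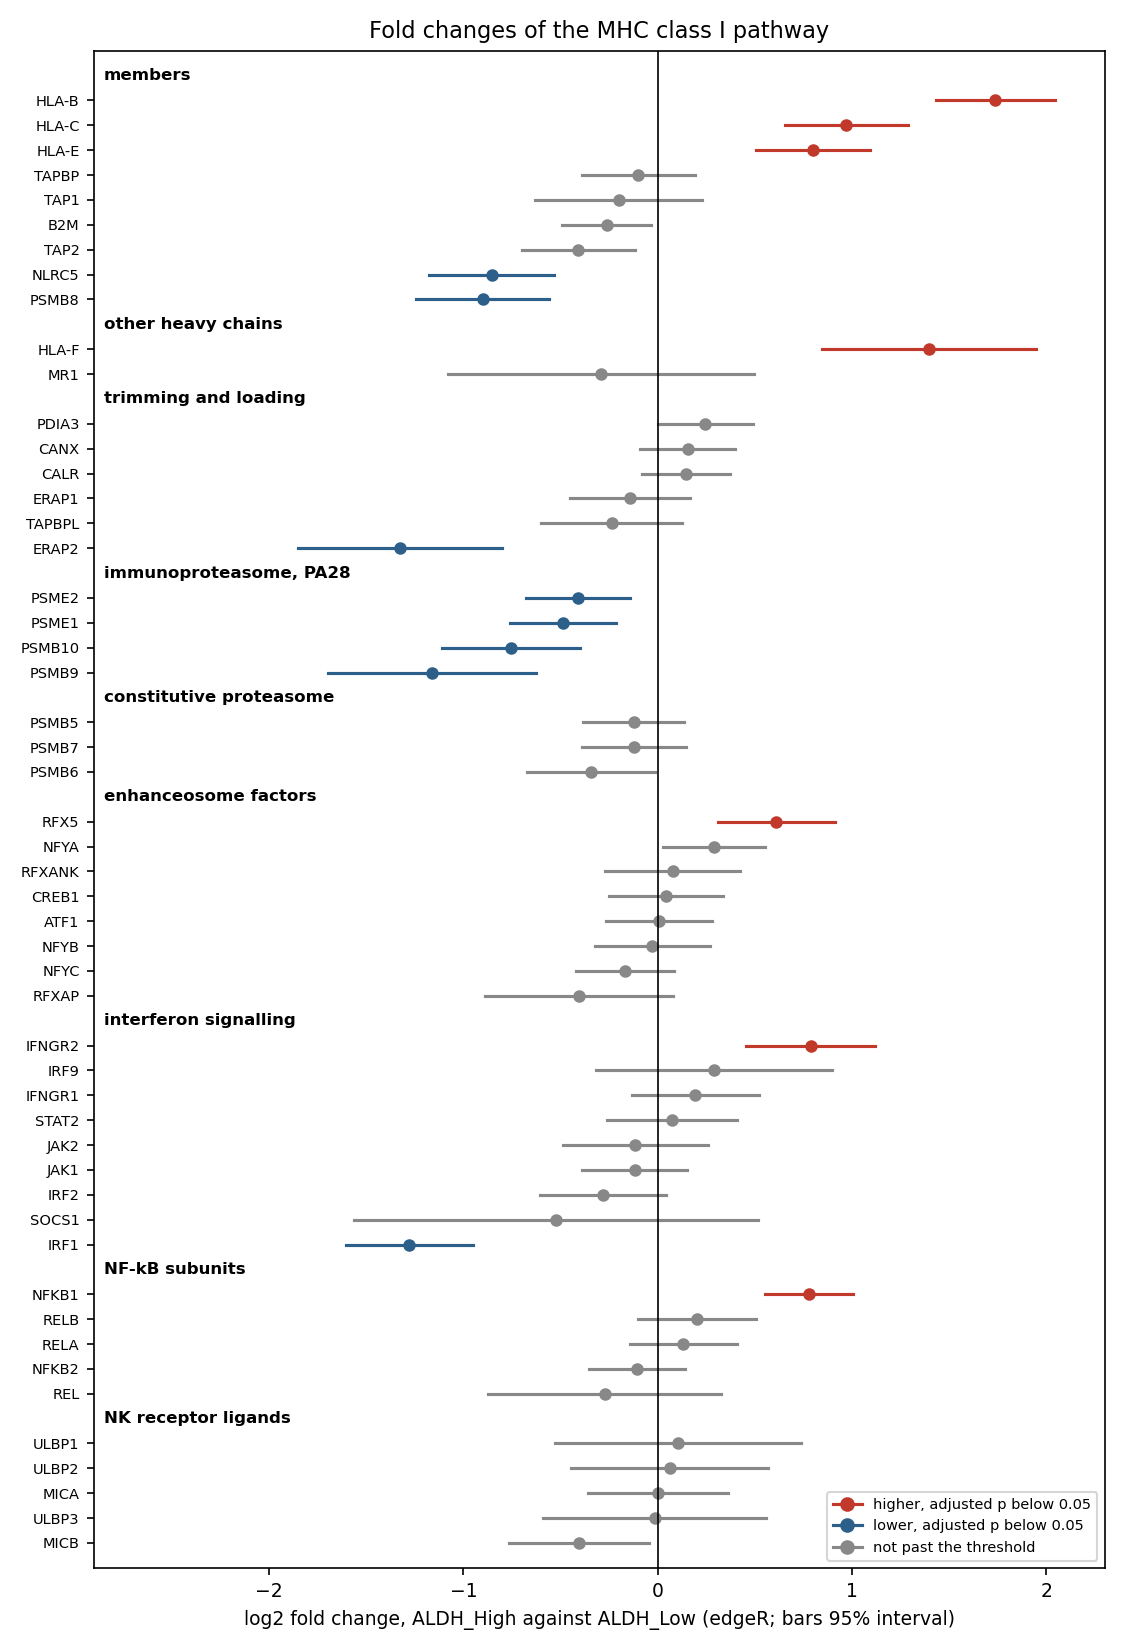
Log2 fold changes of the 9 members and of the tested genes in 8 further lists, ALDH_High against ALDH_Low, with 95% intervals from the edgeR fit; red points were called higher, blue points lower, and grey points were not past the threshold. HLA-B (1.74) and HLA-F (1.40) lie at the upper end and ERAP2 (-1.33), IRF1 (-1.28) and PSMB9 (-1.16) at the lower end.

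Among the regulators, IRF1, the interferon-induced factor that binds ISRE elements, was lower in ALDH_High. It had 10.0, 10.7 and 8.50 TPM there and 22.8, 22.9 and 23.0 TPM in ALDH_Low, with almost no spread in the ALDH_Low group. Its log2 fold change was -1.28 (edgeR adjusted p 0.000222). IFNGR2, a chain of the interferon-gamma receptor, was higher (0.79, SE 0.15, edgeR adjusted p 0.00426). IRF1 and IFNGR2 each overlap a protein-coding gene on the opposite strand, with at most 404 and 447 counts in any library. The part of these overlaps in the values was not tested. The other 7 genes counted in the interferon-gamma list did not pass; JAK2 had a log2 fold change of -0.12 (edgeR adjusted p 0.687). Of 8 factors that bind the X and Y boxes, RFX5 was higher, at 68.9 ± 13.1 against 43.4 ± 5.18 TPM (SD, n = 3; 0.61, edgeR adjusted p 0.00957), and 7 did not pass. Of 5 NF-kB subunits, NFKB1 was higher (0.78, SE 0.10, edgeR adjusted p 0.000482) and 4 did not pass. The 5 ligands of activating NK cell receptors gave 0 calls, with values from -0.41 (MICB, edgeR adjusted p 0.109) to 0.10 (ULBP1). At an unadjusted p under 0.05, 1 of the 5 passed in edgeR, and DESeq2 and limma also gave 0 calls.

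Class II molecules present peptides to CD4 T cells by a separate pathway. Of 14 HLA-D class II genes tested, 13 were higher in ALDH_High, where 10.8% of all genes tested were called higher. Their log2 fold changes ran from 1.17 (HLA-DPB1) to 4.62 (HLA-DOA). HLA-DOB did not pass (-0.72, edgeR adjusted p 0.267). Single genes of this group were named after their values were seen, except those in the lists. HLA-DRA had 584 to 615 TPM in ALDH_High and 30.4 to 69.3 TPM in ALDH_Low, and CD74, the invariant chain, had 2421 ± 182 and 348 ± 93.0 TPM (SD, n = 3). CIITA, the class II transactivator, which was named after its values were seen, had 34.9, 40.9 and 42.2 TPM in ALDH_High and 5.39, 5.64 and 6.69 TPM in ALDH_Low. Its log2 fold change was 2.68 (edgeR adjusted p 3.71e-06). CIITA and NLRC5, relatives of 1 protein family, thus differed between the groups in opposite directions. HLA-DRA and CD74 are also markers of antigen-presenting cells. The other 4 genes of that list, CD1C, CLEC9A, FLT3 and XCR1, had at most 3 counts in every library.

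On chromosome 6, 7 of the 9 members lie in the MHC region, taken as 28 to 34 Mb. Without the members, 152 genes tested there had a median log2 fold change of -0.07, with 22 higher and 11 lower (21.7% called). Of these neighbours 14.5% were higher and 7.24% lower, against 10.8% and 9.83% of all genes tested. The HLA-D class II genes made up 13 of the 22 higher genes, from 14 tested. With those left out as well, a split made after the values were seen that had to lower the count of higher genes, 138 genes remained, 9 higher and 11 lower (14.5% called), with a median of -0.10. Among the called neighbours were HLA-H and HLA-L, class I pseudogenes that were named after their values were seen (1.39 and 1.22). HLA-K, a further class I pseudogene of the region, also named after its value was seen, did not pass (-0.33, edgeR adjusted p 0.652).

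**Figure D5:**
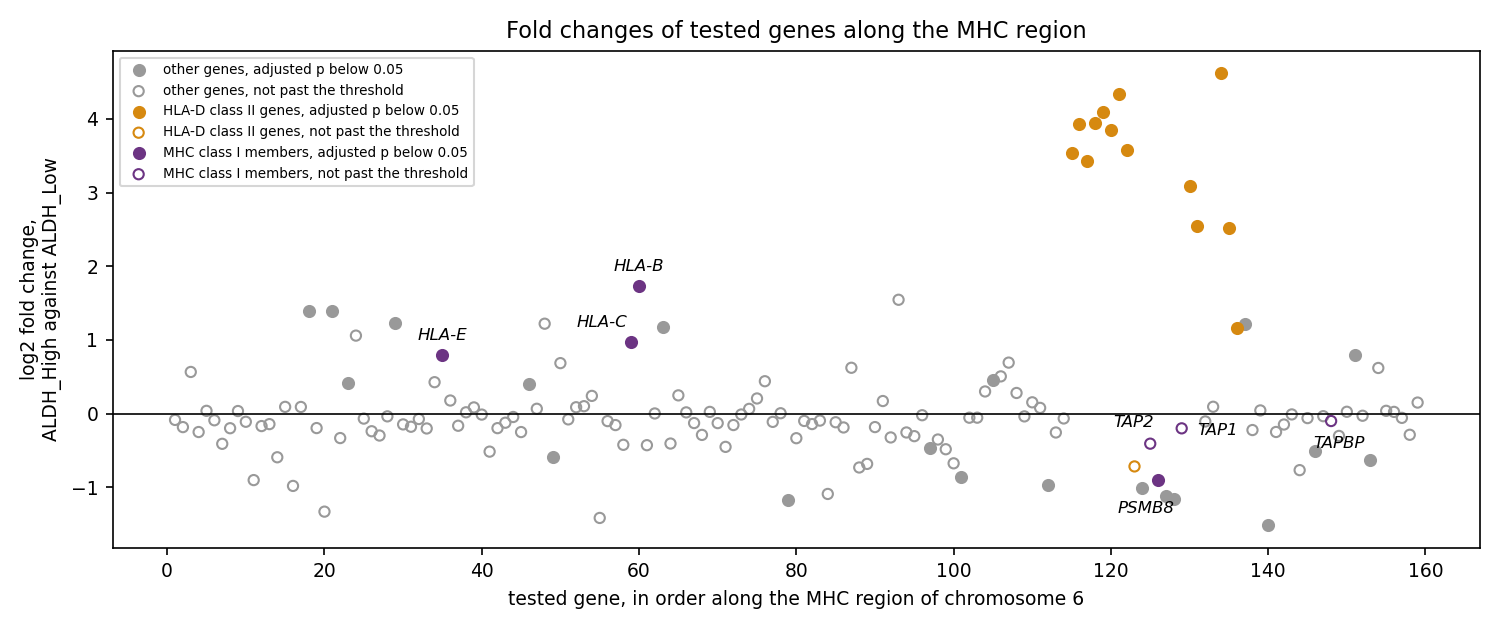
Log2 fold change of the 159 tested genes of the MHC region in their order along chromosome 6; filled points passed an adjusted p of 0.05 and open points did not. HLA-E, HLA-C and HLA-B lie above 0, PSMB8 below 0 among TAP2, TAP1 and TAPBP, and most HLA-D genes at the top.

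Profiles over the 6 libraries were compared with those of 3 members among 9519 other named genes with a mean of at least 10 scaled counts (CPM), by the root mean square difference of log2 values centred on each gene. The nearest to NLRC5 were PRPF40B, AC245595.1 and RBPMS, at 0.0712 to 0.0826, where the median gene was at 0.475. The nearest to HLA-B were GLB1L2, FGD4 and UBE2C, at 0.0913 to 0.111 (median 0.890). Among the nearest to B2M were GTF3C6 and PPA1, at 0.0374 and 0.0394 (median 0.238). None of the genes named here belongs to the lists above. They were picked as the smallest differences, so they must lie below the median. The genes nearest to NLRC5 had log2 fold changes of -0.84, -0.83 and -0.86, beside -0.86 for NLRC5. Whether they share more than the difference between the groups was not tested.

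The authors' deposited table sets the high and the low group each against a further group named 1A3, whose libraries were not analysed here, so the 2 comparisons share that group. For HLA-B the authors' deposited table gives log2 coefficients of -0.18 (SE 0.47) for the high group and -1.94 (SE 0.47) for the low group. For HLA-C the authors' deposited table gives 0.06 and -0.94 (SE 0.46 each), and for HLA-E 0.22 and -0.59 (SE 0.39 each). For NLRC5 the authors' deposited table gives -0.80 (SE 0.20) for the high group and 0.04 (SE 0.20) for the low group. For PSMB8 the authors' deposited table gives -0.98 and -0.10 (SE 0.43 each), and for B2M -0.29 and -0.05 (SE 0.23 each). The difference between the high and the low coefficient was not tested, and for HLA-E and B2M both coefficients in the authors' deposited table lie within 2 SE of 0.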

How the data were processed

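RNA of 3 ALDH_High and 3 ALDH_Low libraries was made into stranded mRNA libraries, per the labels' protocols. The submitters' processing notes name GRCh38, FastQC 0.11.3, STAR 2.5.1b, HTSeq 0.6.1 and DESeq2, without their roles; the annotation release is not given in the sources used here. The deposited counts are whole numbers, and 133 to 177 genes per library had a count of 0 beside a TPM above 0, so they were treated as estimated counts that had been rounded before deposit, and tested as they stand. The authors also deposited TPM values and, per the file headers, coefficients and SEs of a model of 5 groups, taken here to be on the log2 scale; libraries of 3 of these groups were not used here.

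Genes were filtered with filterByExpr, scaled by TMM and compared by the quasi-likelihood F-test (glmQLFTest) of edgeR 4.0.16, two-sided and with no replicate term; adjusted p-values are Benjamini-Hochberg over 17047 genes, with a threshold of 0.05. Folds come from counts and levels are TPM. Alternatives were DESeq2 1.42.0, limma 3.58.1 on log2(TPM + 1) and log2(TPM + 0.1), other scalings and filters, the replicate number as a block, and each library left out. Ratios were compared with exact two-sided permutation tests. Positions come from GENCODE 44 on GRCh38, matched by identifier for 99.1% of genes tested. Rows with an identifier but no symbol (261, at most 0.0267% of a library's counts) stayed in. The genes named are the 9 members, the genes of the lists in the design, and for likeness the 3 nearest to NLRC5, HLA-B and B2M; others are marked. The members and lists were chosen with earlier results of these data known. The precision of each value is set by the spread between libraries; reads carry no molecular identifiers. Some genes of these lists, and 1 gene by likeness, are not reported here, and the counts over the lists leave them out.

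Other lists gave these counts, where 10.8% of all genes tested were called higher and 9.83% lower. Melanoma markers had 3 higher and 1 lower of 5 tested, leukocyte markers 1 higher and 2 lower of 5 tested, fibroblast markers 0 higher and 1 lower of 6, and keratinocyte markers 0 higher and 1 lower of 3.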

Additional observations from a re-analysis of the deposited data

How the results depend on the processing

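HLA-B, HLA-C and HLA-E were higher, and NLRC5 and PSMB8 lower, past the threshold in each of 15 alternatives, with log2 fold changes of 1.65 to 1.88, 0.83 to 1.08, 0.73 to 0.94, -0.92 to -0.72 and -1.07 to -0.79. The number of members called was 5 or 6, 3 of them higher in every alternative and 2 or 3 lower. The share called over all genes differed between alternatives. It was 2006 of 34849 genes with limma at log2(TPM + 1) and all genes kept, where 5 members passed. It was 4466 of 34665 without the low-count filter and 4221 of 17788 without ALDH_High library 1, where 6 members passed in each. B2M and TAPBP passed in none (B2M adjusted p 0.0592 to 0.303), TAP1 passed in 1 and TAP2 in 6. ERAP2 and RFX5 each missed the threshold only when limma used all genes at log2(TPM + 1). The median of the 9 members was -0.25 to -0.012 when 1 library was omitted, nearest to 0 without ALDH_High library 3. The difference in the log2 ratio of TAP2 to TAP1 was -0.16, and -0.32 to 0.085 when a library was left out; its sign changed without ALDH_High library 1. The other 4 ratios kept their direction in 8 alternatives each.

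Over all genes, 3513 passed, 1838 higher and 1675 lower. With limma at log2(TPM + 1) and all genes kept there were 2006, 1155 and 851; with pseudocounts of 1 and 0.1 and a mean TPM of at least 1, the lower genes numbered 1047 and 1051. For these counts the cause was not tested. Omitting 1 library gave a total of 2488 to 4221 calls, with 1306 to 2172 in the higher direction and 1073 to 2049 in the lower, the latter being 1073 without ALDH_High library 2. A fit with replicate block gave 3748 genes and 6 members, TAP2 being the added one (-0.40, edgeR adjusted p 0.0499), and PSME2 missed the threshold (-0.41, edgeR adjusted p 0.0616). Deviations from the group mean correlated at 0.15, 0.08 and 0.11 between libraries that share a number. The labels do not say that the numbers mark a shared culture, day or batch, so the main fit had no replicate term. Depth limits HLA-G, with at most 2 counts, and HLA-F, with 37 to 126 counts.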
